A study of Mus musculus with 32 samples.

Results

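The 10 genes described here encode proteins that reseal the muscle cell surface or shape its caveolae. They were taken as a list of names, with earlier results of these data known: *Dysf*, *Myof*, *Anxa1*, *Anxa2*, *Anxa5*, *Anxa6*, *Trim72*, *Capn3*, *Cav3* and *Ahnak*. Each name was matched to 1 of the 54838 genes of the deposited table, and all 10 were abundant enough to be tested at every age. RNA came from the tibialis anterior (TA) muscle of the lower leg in 32 libraries, with n=4 for wild-type (WT) and n=4 for *Mtm1* knockout (KO) mice at postnatal day (P)1, P14, P21 and P35. All mice were on the C57BL6/J background, and the KO allele carries a deletion in exon 4 of *Mtm1* in every cell. *Mtm1* encodes the lipid phosphatase myotubularin, whose loss in people causes X-linked myotubular myopathy. KO mice are males hemizygous for the allele, the line is a constitutive model, and its untreated WT littermates served as controls. The labels give the tissue only as skeletal muscle, and the study's methods name the TA.

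When a muscle fibre tears, calcium flows in and brings repair proteins to the wound. MG53, the product of *Trim72*, is thought to sense oxidation and gather vesicles, dysferlin (*Dysf*) and its relative myoferlin (*Myof*) carry calcium-binding C2 domains and act in vesicle fusion, and annexins bind lipid in the presence of calcium and form a cap over the lesion. AHNAK is a very large scaffold protein that binds dysferlin and the annexin A2-S100A10 complex, calpain 3 (*Capn3*) is a muscle protease that cleaves AHNAK, and caveolin 3 (*Cav3*) builds the caveolae of muscle and binds MG53 and dysferlin. Inherited loss of *DYSF*, *CAPN3* or *CAV3* causes muscle disease in people, which is why these genes are often read together in myopathies.

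Promoters were matched for 9 of the 10 genes in RefSeq (GRCm38.p6), as windows of 300 bases that run from 250 before to 50 after an annotated start, 5′ to 3′ on the gene's strand. *Anxa6* had no entry. The 4 windows below belong to genes whose RNA differed between genotypes at P35, in opposite directions for the muscle genes *Cav3* and *Capn3*, and capitals mark matches to 3 motifs. The motifs were the myogenic E-box CAGCTG, the AP-1 motif TGANTCA and the MCAT motif CATTCC, each searched on both strands with no overlaps among the matches. *Capn3* has 2 annotated starts, and the windows lie at chr6:112459255-112459554 (*Cav3*, plus strand), chr2:120463343-120463642 and chr2:120476659-120476958 (*Capn3*, plus strand) and chr9:69453433-69453732 (*Anxa2*, plus strand).
Cav3: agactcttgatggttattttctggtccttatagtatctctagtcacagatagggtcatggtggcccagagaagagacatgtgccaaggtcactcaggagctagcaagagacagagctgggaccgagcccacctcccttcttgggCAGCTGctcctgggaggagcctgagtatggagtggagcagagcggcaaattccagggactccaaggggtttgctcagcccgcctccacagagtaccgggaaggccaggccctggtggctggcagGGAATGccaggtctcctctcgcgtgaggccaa
Capn3 upstream start: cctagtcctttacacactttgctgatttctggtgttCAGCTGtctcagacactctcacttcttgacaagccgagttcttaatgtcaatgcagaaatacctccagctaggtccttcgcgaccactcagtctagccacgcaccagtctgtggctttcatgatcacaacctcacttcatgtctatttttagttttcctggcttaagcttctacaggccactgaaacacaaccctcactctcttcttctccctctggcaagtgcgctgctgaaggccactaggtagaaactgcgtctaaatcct
Capn3 downstream start: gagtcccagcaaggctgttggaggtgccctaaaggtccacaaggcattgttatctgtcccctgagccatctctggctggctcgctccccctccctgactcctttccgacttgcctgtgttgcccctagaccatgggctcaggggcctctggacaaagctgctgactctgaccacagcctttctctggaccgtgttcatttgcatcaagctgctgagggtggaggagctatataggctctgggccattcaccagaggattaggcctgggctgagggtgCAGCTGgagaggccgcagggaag
Anxa2: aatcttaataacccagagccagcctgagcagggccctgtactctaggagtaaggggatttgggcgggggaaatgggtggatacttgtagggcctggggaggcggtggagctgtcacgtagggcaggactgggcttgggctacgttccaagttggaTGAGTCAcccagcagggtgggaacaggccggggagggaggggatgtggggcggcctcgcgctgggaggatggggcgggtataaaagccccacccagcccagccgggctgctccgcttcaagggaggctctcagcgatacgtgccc

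*Cav3* held CAGCTG with its first base at position -106 from the start, and a reverse-strand match of the MCAT motif (GGAATG) at position 19. The upstream window of *Capn3* held CAGCTG at position -214 and the downstream window at position 28. *Anxa2* held TGAGTCA at position -95. Of all 32851 windows of this length, 16.3% held CAGCTG, 7.81% TGANTCA and 14.7% CATTCC. Among the other members, CATTCC was present in the windows of *Anxa1* (position -236) and *Ahnak* (position -135), and the windows of *Dysf*, *Myof*, *Anxa5* and *Trim72* held none of the 3 motifs. A match is a description of letters and not evidence of a bound factor.

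Expression is given as CPM, the counts of a gene scaled to a common library size, on 1 scale over all 32 libraries after correction by TMM (a trimmed mean of log ratios between libraries). Between genes, only CPM per kb of merged exon length was compared. On that per-kb scale the order in WT at P35 was *Trim72* (133 ± 14.0, SD, n=4), *Anxa6* (85.5 ± 5.39), *Cav3* (59.4 ± 2.06), *Capn3* (32.3 ± 2.57), *Anxa5* (28.8 ± 5.81), *Ahnak* (25.0 ± 4.68), *Anxa2* (13.8 ± 1.23), *Dysf* (10.3 ± 1.28), *Anxa1* (7.49 ± 0.439) and *Myof* (0.958 ± 0.102). The ranges of *Capn3* and *Anxa5* and of *Anxa5* and *Ahnak* overlapped, and the other neighbours in this order did not. In KO at P35 *Trim72*, *Anxa6* and *Cav3* again led (225 ± 15.7, 118 ± 2.10 and 99.9 ± 7.61), whereas *Capn3* (17.9 ± 0.970) stood in the eighth place, its range overlapping that of *Anxa1* (18.5 ± 2.11). At P1 the order was different: *Cav3* (112 ± 13.1 per kb in WT) and *Trim72* (93.9 ± 12.2) had overlapping ranges at the top, and *Anxa2* (72.6 ± 7.51) stood well above *Ahnak* (21.1 ± 0.978) and *Capn3* (9.52 ± 1.02).

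**Figure D1:**
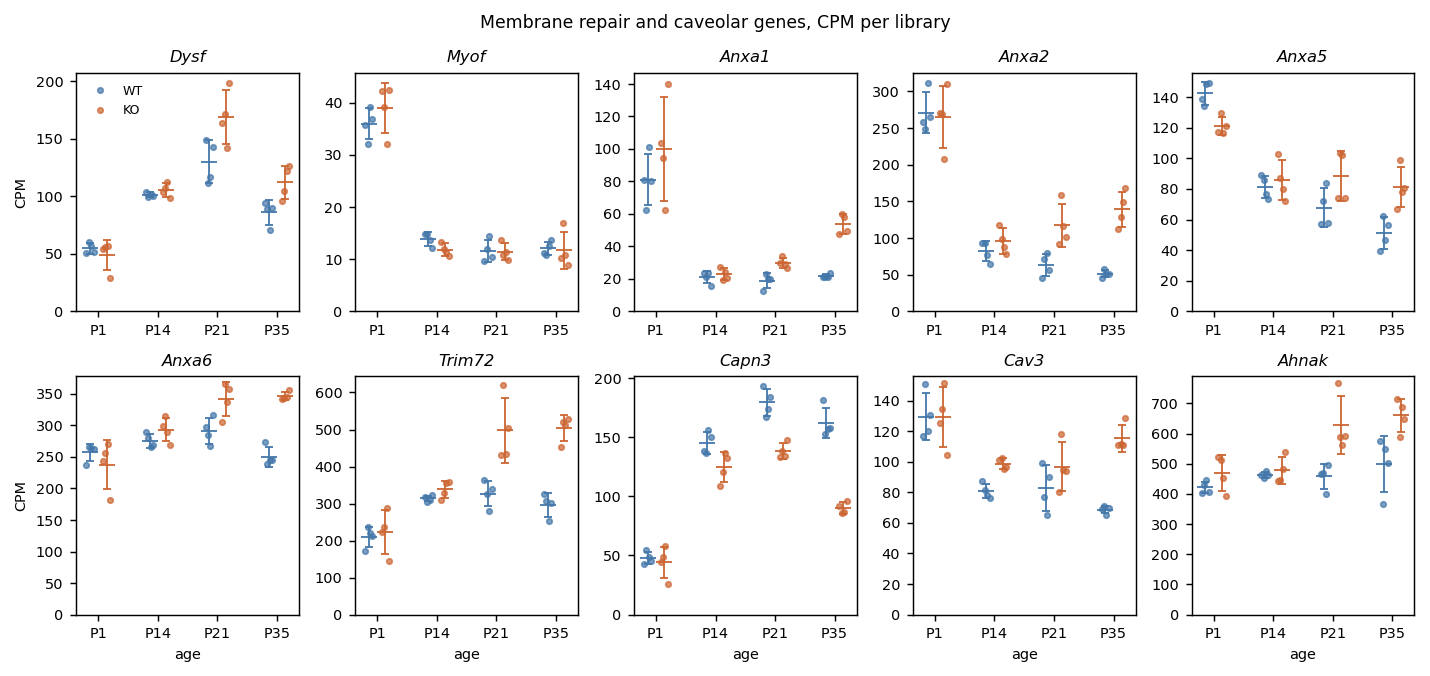
CPM on a linear axis from 0 against age for each of the 10 genes. Points are single libraries (blue WT, orange KO, n=4 each), and bars give the mean and SD. At P35 all KO libraries of *Anxa1*, *Anxa2*, *Anxa5*, *Anxa6*, *Dysf*, *Trim72*, *Cav3* and *Ahnak* lie above all WT libraries, and all KO libraries of *Capn3* lie below.

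The comparison of KO with WT at each age asks when these genes depart from normal levels in relation to the course of the disease. It was run with the quasi-likelihood test of edgeR over all genes, and a differentially expressed gene (DEG) needed an adjusted *P*-value under 0.01 and a change over 1.5-fold. At P1 and at P14, 0 of the 10 members were DEGs, with 0.0442% and 0.0318% of all tested genes. The same count was 0 with DESeq2 at both ages, and unadjusted *P*-values under 0.05 were found for 1 member at P1 (10.9% of all genes) and 3 at P14 (6.82%). At P21 1 member was a DEG (*Trim72*, up), against 4.67% of all genes. At P35 6 of 10 were DEGs, against 16% of all genes: 5 up (*Anxa1*, *Anxa2*, *Anxa5*, *Trim72* and *Cav3*, against 8.49% of all genes up) and 1 down (*Capn3*, against 7.52% down). The median log2 fold change of the 10 members was -0.01, 0.08, 0.39 and 0.59 at the 4 ages in order, and that of all genes was 0.01, 0.00, 0.01 and 0.04. As the muscles were sequenced whole, a change in the share of a cell type and a change of RNA per cell cannot be told apart in any of these values.

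**Figure D2:**
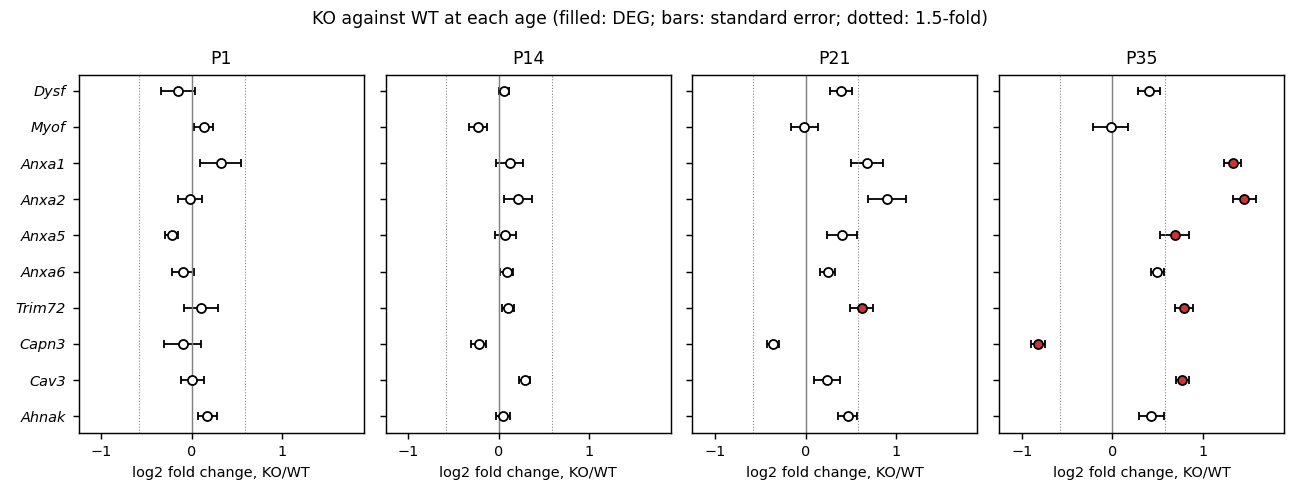
Log2 fold change of KO over WT for the 10 genes, 1 panel per age, with standard errors. Filled points are DEGs and dotted lines mark 1.5-fold. The points lie near 0 at P1 and P14, and at P35 spread from -0.82 (*Capn3*) to 1.46 (*Anxa2*).

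Among the annexins, *Anxa2* and *Anxa1* showed the highest fold changes of the 10 members at P35. Annexin A2 binds S100A10 and joins membranes in the presence of calcium, and annexin A1 is an early arrival at membrane wounds that also limits inflammation. *Anxa2* was at 46.1, 57.3, 51.0 and 51.6 CPM in WT at P35 and at 112, 128, 149 and 168 CPM in KO. The lowest KO library thus lay far above that of WT at its highest, with a log2 fold change of 1.46 (adjusted *P*=9.3e-05, SE 0.126), a 2.75-fold rise. *Anxa1* was at 21.3, 21.0, 21.1 and 23.7 CPM in WT and at 47.9, 60.2, 58.1 and 49.4 CPM in KO, again without overlap. Its log2 fold change was 1.33 (adjusted *P*=3.9e-05, SE 0.0932), a 2.52-fold rise.

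Both genes already stood apart at P21 without passing the test. *Anxa2* at P21 was at 45.9, 71.5, 79.2 and 57.0 CPM in WT and at 92.1, 159, 116 and 101 CPM in KO. The libraries did not overlap, and the log2 fold change of 0.90 (SE 0.210) had an adjusted *P*=0.0158, which missed the limit of 0.01. It passed with DESeq2 (adjusted *P*=0.00026), and over the alternatives other than left-out libraries the adjusted *P*-value ran from 0.00026 to 0.0159. *Anxa1* at P21 was at 12.4, 23.1, 19.9 and 19.9 CPM in WT and at 29.7, 34.2, 29.2 and 26.6 CPM in KO. These groups did not overlap either, and the log2 fold change was 0.68 (adjusted *P*=0.0232, SE 0.174, range 0.0019 to 0.0244 over the same alternatives).

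*Anxa5* encodes the annexin known for its binding to exposed phosphatidylserine and for forming lattices at wounds. At P35 it was at 39.2, 62.6, 46.9 and 56.4 CPM in WT and at 67.1, 99.0, 77.8 and 80.8 CPM in KO. The groups did not overlap, although the lowest KO library exceeded the highest WT library by little, and the log2 fold change was 0.69 (adjusted *P*=0.0074, SE 0.159). This call was held in only 2 of the 8 fits with 1 library left out. It was lost without KO replicate 2, 3 or 4 or WT replicate 1, 3 or 4, where the adjusted *P*-value was 0.0147 to 0.0236 and the log2 fold change 0.57 to 0.73. At P1 the order was the opposite, with WT at 139, 134, 148 and 149 CPM and KO at 117, 129, 117 and 121 CPM, a log2 fold change of -0.22 (adjusted *P*=0.275, SE 0.0676). *Anxa5* was the only member whose libraries did not overlap at P1, against 8.73% of all genes.

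*Anxa6*, an annexin with a doubled core that forms part of the repair cap, was at 274, 238, 245 and 245 CPM in WT and at 342, 344, 346 and 356 CPM in KO at P35. KO libraries were tightly grouped above all WT libraries. The log2 fold change of 0.49 (adjusted *P*=0.00075, SE 0.0718) corresponds to 1.41-fold, so *Anxa6* passed the test but not the fold limit of a DEG. At P21 its log2 fold change was 0.24 (adjusted *P*=0.0573, SE 0.0801).

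Neither ferlin was a DEG at any age. *Dysf* was at 94.3, 89.2, 70.4 and 90.0 CPM in WT and at 95.5, 104, 122 and 126 CPM in KO at P35. The lowest KO library was just above the highest WT library, and the log2 fold change of 0.41 (adjusted *P*=0.0212, SE 0.118) did not pass. At P21 *Dysf* was at 149, 111, 116 and 142 CPM in WT and at 163, 171, 142 and 198 CPM in KO, with 1 KO library inside the WT range and a log2 fold change of 0.39 (adjusted *P*=0.0446, SE 0.120). *Myof*, which is known for its role in myoblast fusion, was at 11.2, 10.8, 12.6 and 13.6 CPM in WT and at 10.2, 16.9, 10.8 and 8.89 CPM in KO at P35. The KO libraries spanned the whole WT range, and the log2 fold change was -0.02 (95% interval -0.45 to 0.41, adjusted *P*=0.945). Differences within these bounds are not excluded by the 4 libraries per group. At P21 *Myof* had a log2 fold change of -0.01 (95% interval -0.34 to 0.32).

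The ratio of *Myof* to *Dysf* counts per kb compares the ferlins within each library, free of library scaling. In WT at P1 *Dysf* exceeded *Myof* 2.30-fold (mean log2 ratio -1.20 ± 0.204, n=4), and at P14 11.1-fold (-3.47 ± 0.131). The later WT means were -4.09 ± 0.443 at P21 and -3.43 ± 0.281 at P35. KO means were -0.88 ± 0.588, -3.76 ± 0.151, -4.48 ± 0.348 and -3.89 ± 0.511 at the 4 ages in the same order. The KO mean was lower than that of WT at P14, P21 and P35, but the WT and KO ranges overlapped at all 4 ages.

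**Figure D3:**
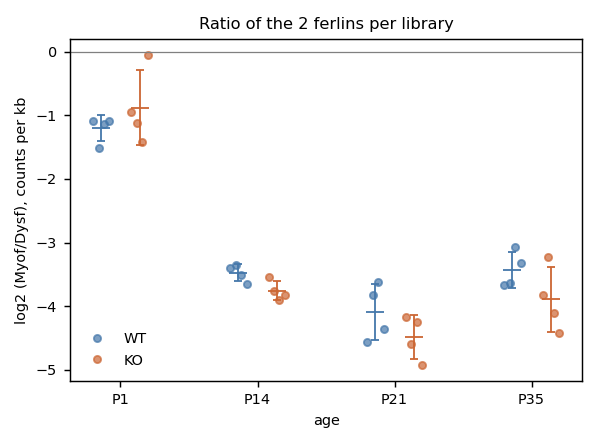
Log2 ratio of *Myof* to *Dysf* counts per kb in each library against age (blue WT, orange KO, n=4 each, bars mean and SD). The ratio lies between -1.51 and -0.05 at P1 and between -4.92 and -3.08 at all later ages over both genotypes.

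*Trim72* was the only member called at P21. It was at 363, 326, 280.4 and 339 CPM in WT and at 432, 619.7, 433 and 505 CPM in KO at that age. All KO libraries were above all WT libraries, and the log2 fold change was 0.62 (adjusted *P*=0.0092, SE 0.127), or 1.54-fold. This call stood close to both limits: it was kept only without KO replicate 1, and was lost without any of the other 7 libraries, where the log2 fold change was 0.49 to 0.68 and the adjusted *P*-value 0.0118 to 0.0267. It was also lost with the RLE size factors of DESeq2 (adjusted *P*=0.0105). At P35 *Trim72* was at 325, 307, 252 and 301 CPM in WT and at 451, 520.2, 513 and 529 CPM in KO. The groups were far apart, and the log2 fold change of 0.79 (adjusted *P*=0.00034, SE 0.0975) remained a DEG with every library left out.

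*Cav3* was at 69.3, 70.9, 65.4 and 69.6 CPM in WT at P35 and at 111, 112, 111 and 129 CPM in KO. KO replicate 4 stood above the other 3 KO libraries, which were close to each other, and all 4 were above WT. The log2 fold change was 0.77 (adjusted *P*=0.00012, SE 0.0723), with 0.70 when KO replicate 4 was left out. At P21 the groups overlapped, with WT at 99.5, 76.7, 65.3 and 90.3 CPM, KO at 80.3, 119, 94.7 and 94.0 CPM and a log2 fold change of 0.24 (adjusted *P*=0.268, SE 0.145). At P14, where 4.82% of all genes had libraries that did not overlap, *Cav3* was at 87.6, 81.3, 78.5 and 76.5 CPM in WT and at 101, 102, 95.5 and 96.5 CPM in KO. Its libraries were apart at that age, with a log2 fold change of 0.29 (adjusted *P*=0.196, SE 0.06). In a fit blocked by replicate number, which treats same-numbered libraries of P14 as pairs, the adjusted *P*-value was 0.00423. With DESeq2 it was 0.00141, and both log2 fold changes were 0.28 to 0.29, below 1.5-fold. Over the other alternatives without a left-out library the adjusted *P*-value was 0.192 to 0.872.

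*Capn3* was the only member lower in KO at P21 and P35 by a test that passed. At P35 it was at 181, 153, 157 and 158 CPM in WT and at 91.7, 85.9, 86.5 and 96.2 CPM in KO. The highest KO library was far below all WT libraries, with a log2 fold change of -0.82 (adjusted *P*=0.00013, SE 0.0792), which left KO at 0.565 of WT. With library totals in place of TMM the value was -0.42 and no longer past 1.5-fold. At P21 *Capn3* was at 193, 167, 174 and 184 CPM in WT and at 133, 139, 134 and 148 CPM in KO. These groups did not overlap, and the log2 fold change of -0.36 (adjusted *P*=0.0052, SE 0.0652) passed the test but not the fold limit. The test was no longer passed with library totals (-0.17, adjusted *P*=0.0502), with all 32 libraries in 1 fit (0.0489) or without KO replicate 1, 2 or 3 or WT replicate 1 or 4 (0.0139 to 0.0183). At P14 the log2 fold change was -0.22 (adjusted *P*=0.647, SE 0.0816). *Capn3* shares 386 exon bases with *Ganc*, a gene on the same strand whose level was at most 40.6% of that of *Capn3* in any library, and *Ganc* had a log2 fold change of -0.49 (adjusted *P*=0.0065) at P35, so the division of shared reads between the 2 genes is uncertain. Genes antisense to *Dysf*, *Trim72* and *Anxa2* were at most 0.146 CPM in any library.

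*Ahnak* was at 576, 366, 549.8 and 504 CPM in WT and at 716, 589.8, 689 and 649 CPM in KO at P35. The groups were apart by a small margin, and the log2 fold change was 0.43 (adjusted *P*=0.0347, SE 0.141). At P21 *Ahnak* was at 467, 469, 399.7 and 497 CPM in WT and at 769.5, 589.5, 562 and 593 CPM in KO. All KO libraries were higher, with replicate 1 well above the rest, and the log2 fold change was 0.47 (adjusted *P*=0.0139, SE 0.106). Without that library it was 0.36 (adjusted *P*=0.0189).

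Counted over the members, WT and KO libraries did not overlap for 1 gene at P1, 2 at P14 (*Cav3* higher and, when P14 was scaled alone, *Capn3* lower), 5 at P21 (4 higher, 1 lower) and 9 at P35 (8 higher, 1 lower). The corresponding shares of all genes were 8.73%, 4.82%, 25.4% (14.6% higher, 10.8% lower) and 39.6% (20.7% higher, 18.9% lower). *Myof* was the only member whose groups overlapped at P35. Scaling by library totals moved the median over all genes to 0.20 at P21 and 0.44 at P35. The share of mitochondrially encoded counts at P35 was 12.4% to 17.9% in WT and 10.3% to 10.5% in KO, and its part in this shift was not tested. With these totals 8 members were DEGs at P35, all higher, as *Dysf* (0.81), *Anxa6* (0.90) and *Ahnak* (0.83) were added and *Capn3* was lost, so the split of 5 higher to 1 lower holds for TMM.

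**Figure D4:**
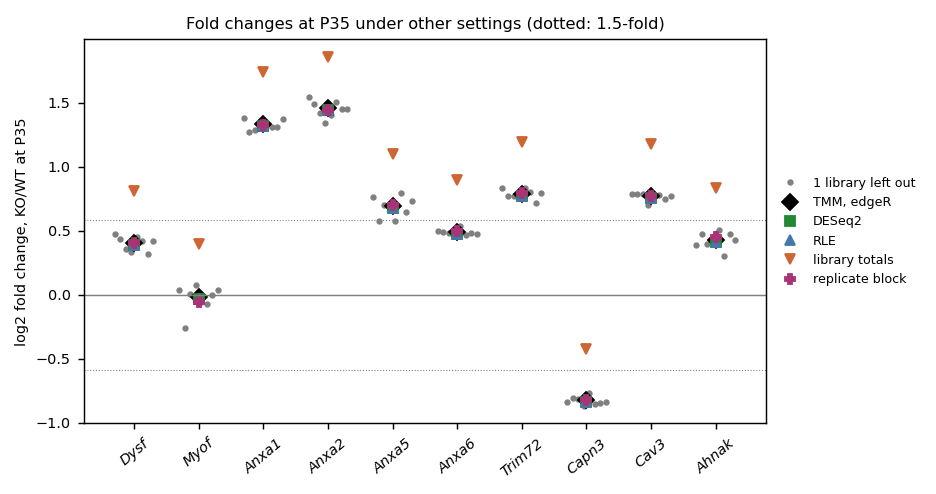
Log2 fold change of KO over WT at P35 for the 10 genes under other settings. Grey points leave out 1 library each, coloured points change the tool, the scaling or the design, and dotted lines mark 1.5-fold. Library totals (downward triangles) shift every gene upward, *Myof* from -0.02 to 0.39 and *Capn3* from -0.82 to -0.42.

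Steps between neighbouring ages show how the levels of the same genes changed with age in the sampled tissue, and how far KO followed WT. From P1 to P14, when 55.1% of all genes in WT were called, 7 of 10 members were. *Anxa1* (log2 change -1.96), *Anxa2* (-1.73), *Myof* (-1.39), *Anxa5* (-0.82) and *Cav3* (-0.69) fell, whereas *Capn3* rose by 1.59 (adjusted *P*=2.7e-07) and *Dysf* by 0.88. In KO 5 of 10 members were called over the same step (52.6% of all genes): *Anxa1* (-2.16), *Myof* (-1.75) and *Anxa2* (-1.5) fell, while *Capn3* rose by 1.47 and *Dysf* by 1.08. *Anxa5* (-0.53) and *Cav3* (-0.41) did not pass 1.5-fold in KO. Markers of keratinocytes (6 genes) summed to 1733 to 6441 CPM in the libraries of P1 and to at most 6.31 CPM later. Their part in the falls over this step was not tested. Library totals shifted the median of all genes over this step to -0.85 in WT and -0.80 in KO, and the rise of *Dysf* was then 0.11 and 0.38 and no longer called. KO replicate 4 of P1 had the lowest *Dysf*, *Trim72*, *Capn3* and *Cav3* of its group, the lowest summed level of fibre markers of any library (18891 CPM) and the highest *Anxa1* and *Anxa2*. The number of members called in KO over this step was 5 to 6 with 1 library left out.

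From P14 to P21, 0 of 10 members were called in WT (5.53% of all genes). The same count was 0 with DESeq2, and 2 members had an unadjusted *P*-value under 0.05 (39.6% of all genes), *Dysf* (0.35) and *Capn3* (0.29). In KO 1 member was called (7.04% of all genes), *Dysf*, which rose by 0.66 (adjusted *P*=0.0023, SE 0.0990). That call was lost without KO replicate 2 of P14 (adjusted *P*=0.0107) and without KO replicate 4 of P21 (0.57, below 1.5-fold). From P21 to P35 1 member was called in WT (2.45% of all genes), *Dysf*, which fell by 0.61 (adjusted *P*=0.0098, SE 0.116), and this call was lost when any of the 8 libraries was left out (adjusted *P*-values 0.0121 to 0.0303). The value of *Dysf* over the same step in KO was -0.58 (adjusted *P*=0.0103, SE 0.12). In KO 2 members were called (4.01% of all genes): *Anxa1* rose by 0.86 (adjusted *P*=0.0017, SE 0.103) and *Capn3* fell by 0.61 (adjusted *P*=0.0014, SE 0.0663). *Capn3* lost its call without KO replicate 4 of P21 (-0.57) or KO replicate 2 of P35 (-0.58), and with library totals (-0.47). The value of *Anxa1* over that step in WT was 0.19 (adjusted *P*=0.452, SE 0.169), and that of *Capn3* was -0.16 (adjusted *P*=0.156, SE 0.0745).

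An interaction term, fitted in edgeR with the 32 libraries together, tested whether the KO effect itself differed between neighbouring ages. At an adjusted *P*-value under 0.01, 0 of 10 members passed for P14 against P1, for P21 against P14 or for P35 against P21, against 0.0161%, 0.425% and 0.463% of all genes. The counts were also 0 with DESeq2, and members with an unadjusted *P*-value under 0.05 numbered 0, 4 and 4 (6.46%, 12.9% and 17.4% of all genes). The 4 members between P14 and P21 were *Anxa2* (0.67 more at P21), *Anxa1* (0.55), *Trim72* (0.50) and *Ahnak* (0.41), and their smallest adjusted *P*-value was 0.195. Between P21 and P35 they were *Cav3* (0.52, SE 0.164, adjusted *P*=0.0837), *Anxa1* (0.64), *Anxa2* (0.55) and *Capn3* (-0.47). So the call of a member at P35 and not at P21 is not shown to be a difference between these ages.

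A wider list of 59 genes around these proteins was examined in the same fits. It was chosen with earlier results of these data known, so its counts beside the shares of all genes are descriptions. At P1 and P14, 0 of the 55 genes tested were DEGs in edgeR, against 0.0442% and 0.0318% of all genes. DESeq2 called 0 and 1, the latter beside 53 over all genes. Unadjusted *P*-values under 0.05 in edgeR were found for 6 and 12, against 10.9% and 6.82% of all genes. WT and KO libraries did not overlap for 5 and 10, against 8.73% and 4.82%. All 10 at P14 were higher in KO, while over all 15728 genes 485 were higher by this count and 273 lower. In a fit blocked by replicate number, 2 were called at P14, *Anxa8* (2.30, adjusted *P*=0.00072) and *S100a4* (0.70, adjusted *P*=0.0074), while the calls over all genes went from 5 to 98. At P21 9 of 54 were higher and 1 lower (3.18% and 1.5% of all genes), and at P35 12 were higher and 4 lower (8.49% and 7.52%). The median log2 fold change of the list was 0.14 at P21 and 0.28 at P35. The counts stand for TMM scaling, since library totals gave 29 higher and 0 lower at P35.

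Among the other annexins 3 genes rose at both P21 and P35. Of all 12 annexins, members included, 10 were tested at P35. Of these, 6 were called higher and 0 lower, against 8.49% and 7.52% of all genes. By log2 fold change 9 were higher and 1 was lower (-0.21), while over all genes 8287 were higher and 7308 lower. *Anxa7* was at 37.7, 37.2, 30.2 and 45.7 CPM in WT and at 179.8, 160.1, 164 and 158 CPM in KO at P35, with a log2 fold change of 2.16 (adjusted *P*=1.1e-05, SE 0.121). *Anxa4* was at 12.8, 13.4, 12.2 and 16.6 CPM in WT and at 66.6, 62.6, 88.7 and 84.3 CPM in KO, and its log2 fold change was 2.48 (adjusted *P*=1.3e-05, SE 0.142). *Anxa8*, at 0.30 to 2.21 CPM in WT and 7.71 to 19.3 CPM in KO, had a log2 fold change of 3.53 (adjusted *P*=0.00073, SE 0.512). All 3 were DEGs at P21 as well, with log2 fold changes of 1.66, 1.81 and 4.05, and their groups did not overlap at either age. *Anxa8* lost its call at P21 without KO replicate 2 (adjusted *P*=0.0122).

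S100 proteins are small calcium-binding partners of annexins. At P35 4 of 6 were called higher and 0 lower, against 8.49% and 7.52% of all genes. *S100a10*, the partner of annexin A2, was at 34.2, 36.5, 34.6 and 30.9 CPM in WT and at 59.5, 64.9, 68.9 and 78.6 CPM in KO, and its log2 fold change was 1.02 (adjusted *P*=0.00012, SE 0.0947). Each KO library was above each WT library, as it was for *Anxa2*. Its log2 fold change at P21 was 0.54 (adjusted *P*=0.0170). *S100a6* rose at P21 (0.88) and P35 (1.00), *S100a4* rose at P21 (3.09) and P35 (3.52, with 45.5 to 167 CPM in KO against 5.37 to 11.6 in WT), and *S100a13* rose at P21 (1.83) and P35 (2.10).

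Genes of caveolae moved both ways. *Pacsin3*, a muscle membrane-bending protein, rose at P35 (0.68, SE 0.100, adjusted *P*=0.00081) and was at 0.49 at P21 (adjusted *P*=0.0083, below 1.5-fold), and *Cavin4*, the muscle cavin, rose at P21 (0.81, SE 0.132, adjusted *P*=0.0035) and P35 (1.07), the former call being lost without WT replicate 2 (adjusted *P*=0.0120). *Cav2* (-0.77, SE 0.121, adjusted *P*=0.0011) and *Cavin2* (-0.83, SE 0.152, adjusted *P*=0.0024), which are known from endothelium and fat, fell at P35. With library totals the values were -0.37 and -0.43 and no longer called. At P21 *Cavin2* was also called (-0.65, adjusted *P*=0.0035), the only gene of the wider list that fell at that age, but not with library totals (-0.47), nor without KO replicate 2 (-0.62) or 4 (-0.63) or WT replicate 2 (-0.66) or 3 (-0.56). *Cav2* at P21 was at -0.57 (adjusted *P*=0.0029, below 1.5-fold). The summed level of 5 endothelial markers also had a lower mean in KO at P35, at 286 to 357 CPM against 328 to 611 CPM in WT, with overlapping ranges. All 5 were lower by log2 fold change and 2 were called lower, against 7.52% of all genes. At P21 the sum was 433 to 519 CPM in KO and 549 to 835 CPM in WT, without overlap. All 5 were lower there too, 0 were called in edgeR, and 4 had an unadjusted *P*-value under 0.05 (35.1% of all genes). The summed level of 4 adipocyte markers was higher in KO at P35, at 12.7 to 48.3 CPM against 1.98 to 8.35 CPM in WT. The part of either cell type in the falls of *Cav2* and *Cavin2* was not tested.

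In the groups of calpains, of fusion and lipid enzymes and of partner proteins, 1 to 3 genes were called at P35, against 16% of all genes. *Capns1*, the small calpain subunit, rose at P21 (0.68) and P35 (0.65), the only 1 of 9 genes of the calpain system to be called. Without KO replicate 3 or 4 its call at P35 was lost (0.58 and 0.57). *Ano5*, a muscle protein of the anoctamin family whose loss causes muscular dystrophy in people, was at 433, 340.2, 316 and 394 CPM in WT and at 206, 186, 187 and 192 CPM in KO at P35. It fell by 0.92 (adjusted *P*=0.00026, SE 0.106), or by 0.51 with library totals, where it was no longer past 1.5-fold. Its value at P21 was -0.28 (adjusted *P*=0.109). *Smpd1*, the acid sphingomyelinase, fell by 0.60 at P35, and was no longer called without KO replicate 2 or WT replicate 1 (-0.58), with at least 10 counts in every library (-0.58) or with library totals (-0.20). *Stx4a*, a fusion protein, rose by 0.67 at P35. At P21 the values were -0.29 (adjusted *P*=0.0120) for *Smpd1* and 0.40 (adjusted *P*=0.0040, below 1.5-fold) for *Stx4a*. *Ahnak2*, the relative of *Ahnak*, was at 3.77 to 4.77 CPM in WT and at 29.5 to 71.7 CPM in KO, and rose by 3.58 (adjusted *P*=7.4e-05, SE 0.297), after a rise of 2.97 at P21. Of the other ferlins, 1 of 4 was tested at P35, *Fer1l6* (-0.36, adjusted *P*=0.345). None of the 8 genes of ESCRT and its calcium sensor was called at P21 or P35 in edgeR or DESeq2, and 3 and 6 had an unadjusted *P*-value under 0.05, against 35.1% and 50.3% of all genes.

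**Figure D5:**
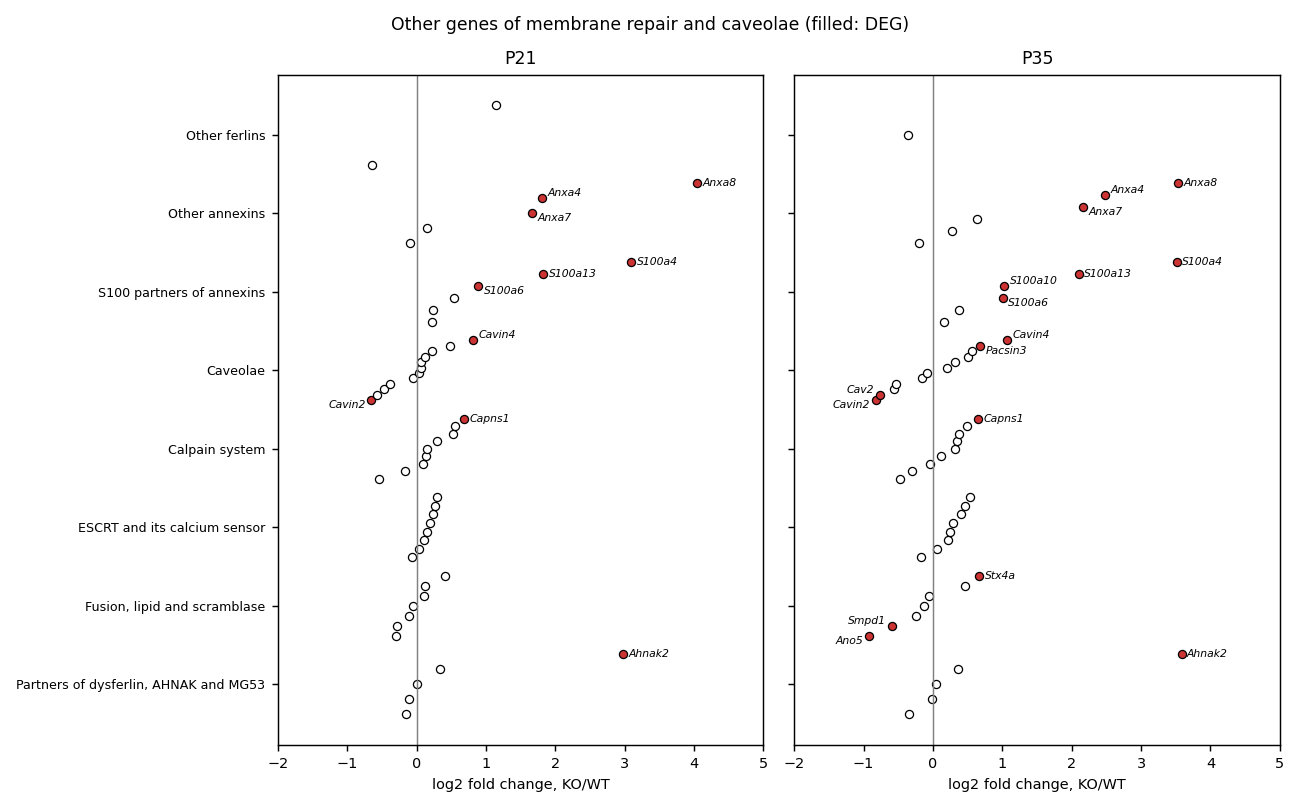
Log2 fold change of KO over WT at P21 and P35 for the genes of the wider list, grouped by role. Each point is 1 gene and filled, named points are DEGs. The annexins that were DEGs lie between 1.66 and 4.05, *Ahnak2* lies at 3.58 at P35, and *Ano5* lies lowest among the DEGs of P35 at -0.92.

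Markers of the cell types in muscle were followed beside these genes. Over all genes 8.49% were called higher and 7.52% lower at P35 in edgeR. All 6 markers of mature fibres were detected in every group, with sums of 18891 to 124727 CPM per library, and these sums were lower in KO at P35 (52935 to 75030 CPM) than in WT (78333 to 117333). Macrophage and leukocyte markers (6 genes, 3 called higher and 0 called lower) summed to 61.2 to 86.4 CPM in KO and 55.9 to 69.3 in WT at P35. By log2 fold change 5 of them were higher and 1 was lower (-0.34), and all 6 had an unadjusted *P*-value under 0.05 (50.3% of all genes). WT and KO libraries did not overlap for 3 of the higher genes and for the lower gene, against 20.7% higher and 18.9% lower of all genes. Fibroblast markers (6 genes, 0 called in edgeR, 1 in DESeq2, 2 with an unadjusted *P*-value under 0.05, against 50.3% of all genes) summed to 3294 to 5192 CPM in KO and 3233 to 4027 in WT, so these ranges overlapped. Adipocyte markers (4 genes, all 4 higher, 3 called in edgeR and 4 in DESeq2) were at 12.7 to 48.3 CPM in KO against 1.98 to 8.35 in WT. Satellite cell markers (5 genes, 1 called higher and 1 called lower) were at 99.3 to 169 CPM in KO against 54.5 to 74.9 in WT. Schwann cell markers (5 genes, 0 called in edgeR, 2 in DESeq2, 5 with an unadjusted *P*-value under 0.05, median log2 fold change 1.51) ran from 292 to 1176 CPM in KO and 87.2 to 547 in WT at P35. *Krt5* and other keratinocyte markers summed to 1733 to 6441 CPM at P1 and at most 6.31 CPM later, alongside the higher *Anxa1*, *Anxa2* and *Anxa8* of P1. None of these markers was at 0 in all libraries of a group at P35. Pericyte and smooth muscle markers (4 genes, 1 higher and 3 lower, of which 1 was called) summed to 798 to 912 CPM in KO and 1005 to 1376 in WT at P35. Tendon markers (3 genes, 0 called in edgeR, 1 in DESeq2, 1 with an unadjusted *P*-value under 0.05) and erythroid markers (3 genes, 0 by each of these counts) overlapped in their sums between genotypes. The part of each cell type in the levels of the 10 genes was not tested.

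The genes whose levels were most like those of each member were found by Pearson's *r* over the 32 libraries, which share ages and genotypes, so these values are descriptions. *Capn3* was most like *Fsd2* (*r*=0.993), and *Myof* most like *Carmil1* (*r*=0.980). *Anxa2* was most like *Emp2* (0.969), *Anxa1* like *Pdlim2* (0.970), *Anxa5* like *Pdia3* (0.961), *Dysf* like *Usp5* (0.959), *Cav3* like *Eid2* (0.897) and *Ahnak* like *Ampd3* (0.849). *Anxa6* was most like *Trim72* (0.904), and *Trim72* like *Pacsin3* (0.958). With the mean of each age subtracted, *Trim72* was most like *Klhl40* (0.945), *Pacsin3* (0.940) and the intermediate filament gene *Des* (0.925), and *Pacsin3* was also among the 3 genes most like *Cav3* (0.888). On that scale *Anxa6*, *Trim72* and *Cav3* correlated with each other at 0.86 to 0.88, *Anxa1* and *Anxa2* at 0.90, and *Capn3* with *Anxa1* at -0.88 and with *Dysf* at -0.01.

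The genotype labels were checked with *Mtm1*, whose counts include exons outside the deletion. KO libraries were below WT libraries at every age, at 2.32 to 3.91 against 5.26 to 6.02 CPM at P1 and 2.64 to 4.51 against 18.9 to 24.9 CPM from P14 on. The log2 fold change was -0.98 at P1, where the adjusted *P*=0.0668 did not pass, and -2.34 to -2.71 later. Libraries held 49321035 to 85631408 counts, and *Myof*, the lowest of the 10 genes per kb, had at least 390 counts in each.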

How the data were processed

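Expression was measured by RNA sequencing of TA muscle, with n=4 libraries for each genotype and age as given by the sample titles. Each library was taken to come from 1 mouse, which the titles do not state. According to the submitters' processing notes the authors used STAR 2.6.1, RSEM 1.2.22, DESeq2 and the GRCm38 build, and they deposited expected counts per gene and library, estimated by RSEM without scaling between libraries or pooling. The study's methods name HTSeq as counter, whereas 4.26% of the deposited values were not whole numbers. The annotation release and the use of strand in counting are not given in the sources used here. Reads shared between genes are split by estimate.

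Counts were rounded and tested with edgeR 4.0.16 (R 4.3.3): filterByExpr, TMM, glmQLFit (legacy mode) and a two-sided glmQLFTest with Benjamini-Hochberg adjustment over all genes of a comparison. The limits for a DEG were 0.01 for the adjusted *P*-value and 1.5-fold. Interactions used 1 fit of all 32 libraries and the adjusted *P*-value alone. Intervals are 95% t intervals of the log2 fold change. Fold changes come from TMM within each comparison, CPM from 1 TMM scale over 18583 genes. For correlations a prior count of 2 was added before taking log2 CPM. The fits were tested on simulated data, and the outcome is not given here. Symbols, coordinates and exon lengths come from GENCODE M21 (GRCm38), and 54809 of 54838 genes had a symbol. Counts cover 49321035 to 85631408 per library, reads carry no molecular identifiers, and replicate libraries all differed beyond sampling noise. *P*-values set each difference against the variation between the 4 libraries of a group, which edgeR estimates for each gene with information from the other genes.

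The 10 members, the wider list (other ferlins, other annexins, S100 partners, caveolae, calpain system, ESCRT, fusion and lipid genes, partners of dysferlin, AHNAK and MG53) and the marker lists were chosen with earlier results of these data known. Genes of the wider list are named where they were among the 3 DEGs of their group with the smallest adjusted *P*-value at P21 or P35, with their values at both ages. For each member the 3 most correlated genes were taken, and the text gives the first and some others. The titles number replicates 1 to 4 in every group. They do not state that same-numbered libraries are pairs. Same-numbered WT and KO libraries deviated together at P14, with correlations of 0.252, 0.290, 0.190 and 0.588, and at no other age in all 4 pairs. WT replicate 2 of P14 nevertheless correlated more with another KO library than with the one of its number. At P14 the replicate number as a block gave 0 members, as did the fit without it, and 98 DEGs over all genes against 5. Alternatives were DESeq2 1.42.0, RLE factors, library totals, other filters, unrounded counts, the block, a fit of all libraries, an adjusted *P*-value under 0.05 without a fold limit, a prior count of 0.5, and each library left out in turn. For the wider list they were added after seeing the data.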

Additional observations from a re-analysis of the deposited data

Results flagged for a closer look

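Within groups of 4 libraries, 6 of the 80 groups (10 genes in 8 groups) had 1 library that stood apart by Dixon's test at its 95% limit, where chance gives about 1 in 20. *Dysf* in KO replicate 4 of P1 was at 29.1 CPM, against 53.8 to 56.8 in the other 3, and *Trim72*, *Capn3* and *Cav3* were also lowest in that library. *Anxa6* in WT replicate 1 of P1 was at 237 CPM, against 262 to 266. *Ahnak* in KO replicate 1 of P21 was at 769.5 CPM, against 562 to 593. At P35 *Anxa1* in WT replicate 4 was at 23.7 CPM, against 21.0 to 21.3, *Capn3* in WT replicate 1 was at 181 CPM, against 153 to 158, and *Cav3* in KO replicate 4 was at 129 CPM, against 111 to 112. Leaving out each of these P35 libraries kept the 3 genes as DEGs. *Anxa5* was lower in all KO than in all WT libraries at P1 and higher in all KO libraries at P35 (log2 fold change 0.69), and the difference between these 2 ages was not tested.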

How the results depend on the processing

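Counts of members called held within 1.5 times of the reported count under all alternatives at P1, at P14, at P35 and for the 3 interactions, and for the step from P1 to P14 in WT. At P35 the count was 5 to 6 with 1 library left out, 8 with library totals and 9 at an adjusted *P*-value under 0.05 without a fold limit. At P21 the 1 call for KO against WT became 6 at an adjusted *P*-value under 0.05 without a fold limit, 3 with DESeq2, 0 with RLE factors, 4 with library totals, 2 without a filter, 2 with all 32 libraries in 1 fit and 0 to 1 with 1 library left out. With the 0.05 limit alone, the step from P14 to P21 gave 2 members in WT and 4 in KO, and the step from P1 to P14 gave 8 in KO. The WT step from P21 to P35 gave 0 with RLE factors and 0 in every fit with 1 library left out, the KO step from P14 to P21 gave 0 to 1, and the KO step from P21 to P35 gave 1 to 2 and 1 with library totals. The wider list at P35 had 29 calls with library totals. At P14 it had 0, but 1 with DESeq2 and 2 in a fit blocked by replicate number, which treats same-numbered libraries as pairs. In a fit blocked by replicate number, the WT step from P21 to P35 gave 0, the KO step from P14 to P21 gave 0 and the KO step from P21 to P35 gave 1. Under that block *Trim72* at P21 passed no longer (adjusted *P*=0.0119) while *Anxa2* passed (0.0033). The titles do not state that the numbers pair the libraries of these comparisons. The other counts of members stayed the same under the block.

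Values of members that were not DEGs changed sign in 30 cases. With 1 library left out, the log2 fold changes at P1 ran from -0.233 to 0.0337 for *Dysf*, -0.106 to 0.0740 for *Anxa2*, -0.174 to 0.0102 for *Anxa6*, -0.0525 to 0.263 for *Trim72*, -0.260 to 0.0822 for *Capn3* and -0.0832 to 0.096 for *Cav3*. At P14 they ran from -0.0310 to 0.142 for *Anxa5* and -0.0242 to 0.0761 for *Ahnak*, at P21 from -0.113 to 0.102 and at P35 from -0.261 to 0.0766 for *Myof*, and from -0.176 to 0.0349 for the interaction of *Cav3* from P14 to P21. Library totals gave 0.0189 for *Anxa2* at P1, 0.167 at P21 and 0.395 at P35 for *Myof*, and 0.0611 for that interaction of *Cav3*. *Cav3* at P1 became -0.000428 with DESeq2, -0.000427 with RLE factors, -0.0019 without a filter and -0.00593 with all libraries in 1 fit, and *Myof* at P35 became 0.00298 with at least 10 counts in every library. Library totals move all genes by the construction of the scale, and the cause of the other changes was not tested.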

Other observations

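Before symptoms, at P14, 1 gene of the wider list passed the test below the fold limit, and it is described here after its values were seen. *Anxa7*, an annexin that binds membranes in the presence of calcium, was at 25.4, 26.2, 26.9 and 25.7 CPM in WT and at 37.8, 36.9, 39.0 and 38.6 CPM in KO at P14. The groups did not overlap, and the log2 fold change of 0.55 (adjusted *P*=0.0046 in edgeR, SE 0.0464) corresponds to 1.46-fold. In later libraries the WT level stayed at 18.1 to 45.7 CPM, whereas KO libraries were at 72.1 to 84.5 CPM at P21 and 158 to 179.8 CPM at P35. At P1 *Anxa7* was at 46.5 to 48.8 CPM in WT and 48.6 to 62.9 in KO (log2 fold change 0.21, adjusted *P*=0.394). *Anxa8* at P14 was at 0.35 to 0.47 CPM in WT and 1.13 to 3.13 CPM in KO (log2 fold change 2.40, adjusted *P*=0.107, SE 0.395, in edgeR), without overlap. *Anxa8* did not pass that test, but was called with DESeq2 (2.40, adjusted *P*=3.37e-06) and in a fit blocked by replicate number (2.30, adjusted *P*=0.00072).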
